A study of Mus musculus with 2 samples.

Results

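The genes described here encode adhesion receptors of T cells: the integrin chains Itgal, Itgb2, Itga4, Itgb1 and Itgb7, the integrin ligands Icam1 and Icam2, the hyaluronan receptor Cd44 and the selectin ligand Selplg. They were chosen by gene symbol, and they are 9 of the 19316 genes named on the array. Their messenger RNA was measured in extracellular vesicles, membrane particles shed by cells, that mouse cytotoxic T lymphocytes (CTL) released into their medium. CTL kill cells that display foreign or tumour antigens. The 0.5 M NaCl fraction and the 0.3 M NaCl fraction are vesicles that left a DEAE column at those salt concentrations. The resin carries positive charge and holds negatively charged vesicles until salt displaces them. For both fractions, medium of a 7-day culture was first concentrated over a 750 kDa ultrafiltration membrane. Each fraction was read on 1 single-colour Cy5 array, and there are no replicates. The sources used here do not give the strain or age of the mice, how the cells were stimulated, or how many cultures went into a fraction.

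Integrins are receptors made of an alpha and a beta chain. Itgal pairs with Itgb2 to form LFA-1, which holds a CTL to its target by binding ICAM-1 and ICAM-2. Itga4 pairs with Itgb1 to form VLA-4, which binds VCAM-1 on inflamed endothelium, or with Itgb7 to form the gut-homing receptor that binds MAdCAM-1. Cd44 binds hyaluronan and is high on T cells that have met antigen. Selplg encodes PSGL-1, the sialomucin through which leukocytes roll on selectins. Adhesion proteins of this kind are also carried on the surface of vesicles, but only RNA was measured here.

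Each of the 9 genes had 1 probe, annotated to an accession that the RefSeq gene table also lists for that gene. For 7 of them the table holds 1 curated messenger RNA, whereas it holds 4 for Itgal and 6 for Cd44, so for these genes 1 probe may not stand for every splice form. A probe's brightness depends on its own binding, so "bright", "dim" and the share of probes below it only place a probe on its array, and sums over markers only total the same probes on each array. None of these compares the amounts of different messenger RNAs. Intensities are the deposited linear values, whole numbers with a median of 25 over the valued probes of each array. The quartiles of valued probes were 12 and 69 at 0.5 M and 11 and 70 at 0.3 M. Cells of the table are empty for 28.7% of the 23473 probes at 0.5 M and for 19.2% at 0.3 M, by a rule that is not given. A difference is the log2 intensity at 0.5 M less that at 0.3 M, after each array was centred on its median over the 16154 probes valued on both, which removes a shift of -0.30. Uncentred differences are those of the values as deposited. With 1 array a fraction there is no test, and a 2-fold size was used to count genes.

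The receptors fell into a brighter and a dim set. Itgb7, Icam1 and Selplg passed the level filter, which kept genes at or above the median gene of either array, and were nearly level between the fractions. Itgal, Itgb2, Itgb1 and Icam2 had values on both arrays but were below the array median on each. Itga4 had a value at 0.3 M alone, and Cd44 had none on either array. None of the 7 genes valued on both arrays differed by 2-fold. Of all 13735 measured genes, 5.1% were at least 2-fold higher and 2.77% at least 2-fold lower at 0.5 M, and of the 7446 kept genes 5.24% and 2.35%. With the values as deposited those shares of the kept genes were 1.64% higher and 7.78% lower. At such shares a count of 0 among 7 genes is close to the background.

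**Figure D1:**
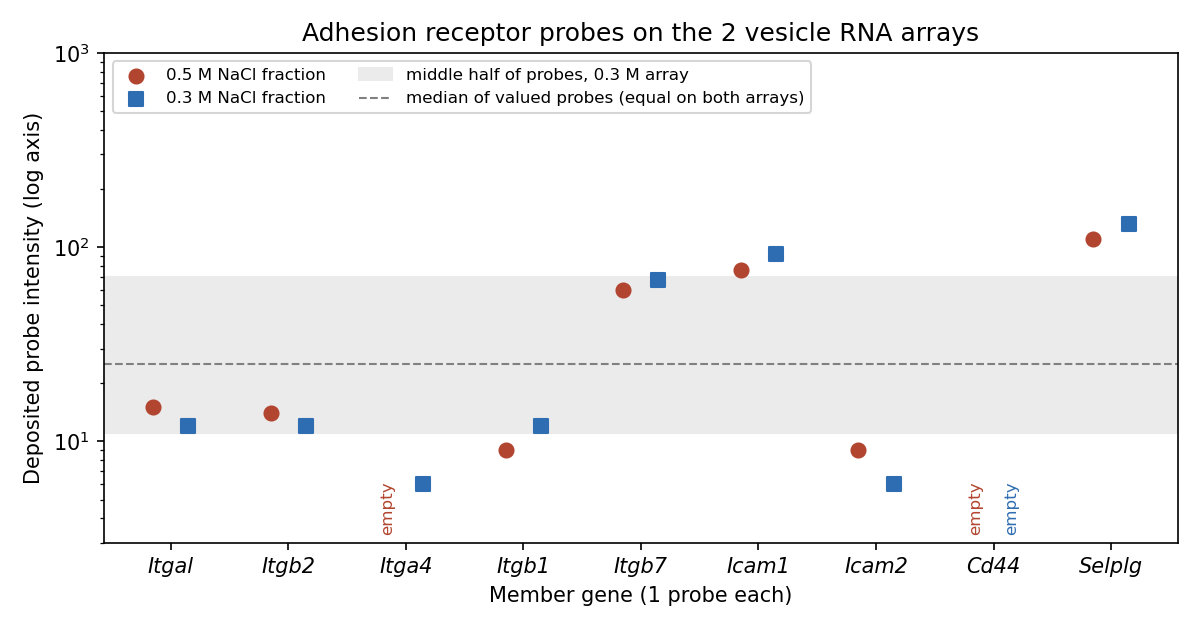
Deposited intensity (log axis) of the probe of each gene in the 0.5 M NaCl fraction (red circles) and the 0.3 M NaCl fraction (blue squares), 1 array each, with "empty" where the table holds no value. The dashed line is the median of valued probes, 25 on both arrays, and the grey band runs between the quartiles of the 0.3 M array; Itgb7, Icam1 and Selplg lie above the median and the other valued genes below it.

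The LFA-1 chains were dim on both arrays. Itgal, the alpha chain that carries the ligand-binding domain, had an intensity of 15 at 0.5 M and 12 at 0.3 M. Itgb2, the beta chain shared by the leukocyte integrins, had 14 at 0.5 M and 12 at 0.3 M. Both chains were thus a few units higher at 0.5 M, at levels where 1 unit is a large step. The difference was 0.62 for Itgal, and the rounding of both intensities to whole numbers leaves it anywhere from 0.51 to 0.73. For Itgb2 it was 0.52, with a rounding range of 0.41 to 0.63. The 2 rounding ranges overlap, so the chains of LFA-1 could not be told apart in how they differed between the fractions. The sign was positive under every scaling tried, from 0.32 to 0.65 for Itgal and from 0.22 to 0.55 for Itgb2.

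Both differences were of the size of the disagreement between probes of the same gene. Over 358 kept genes with 2 or more probes, the difference of a single probe had an SD of 0.55, a factor of 1.46. Measured from 0, Itgal was 1.13 and Itgb2 0.95 of these SDs. Counted from the median of all kept genes, 0.08, their differences were 0.54 and 0.44. The SD comes from brighter genes than these and leaves out variation between vesicle preparations. Of the 456 probes that read 12 at 0.3 M, as Itgal and Itgb2 did, 81 (17.8%) were empty at 0.5 M, and the others had a median of 10 there and ran from 5 to 37.

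The ligands of LFA-1 gave a bright and a dim probe. Icam1, induced on many cells by inflammatory signals, had an intensity of 76 at 0.5 M and 92 at 0.3 M. Its difference was 0.02 after centring, with a rounding range of 0.01 to 0.04. Centring decides its sign: the uncentred difference was -0.28, close to the -0.22 that was the median of kept genes on that scale, and with quantile normalization it was -0.05. Icam1 therefore stood where the array as a whole stood. Icam2, expressed by resting lymphocytes and endothelium, had 9 at 0.5 M and 6 at 0.3 M. Its difference of 0.88 was the highest of the 7, and its rounding range of 0.69 to 1.09 spans the 2-fold size. It was positive under every scaling tried, and it was 0.38 once a pseudocount of 16 was added to each intensity. An intensity of 6 at 0.3 M was shared by 694 probes, of which 60.8% were empty at 0.5 M. The valued ones had a median of 7 there, and 20 was the highest. The lowest value on the 0.5 M array was 5, and a probe reading 5 there and 6 at 0.3 M had a centred difference of 0.04. A valued probe at the level of Icam2 could thus not fall below 0 after centring, so the positive centred sign carries no information.

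**Figure D2:**
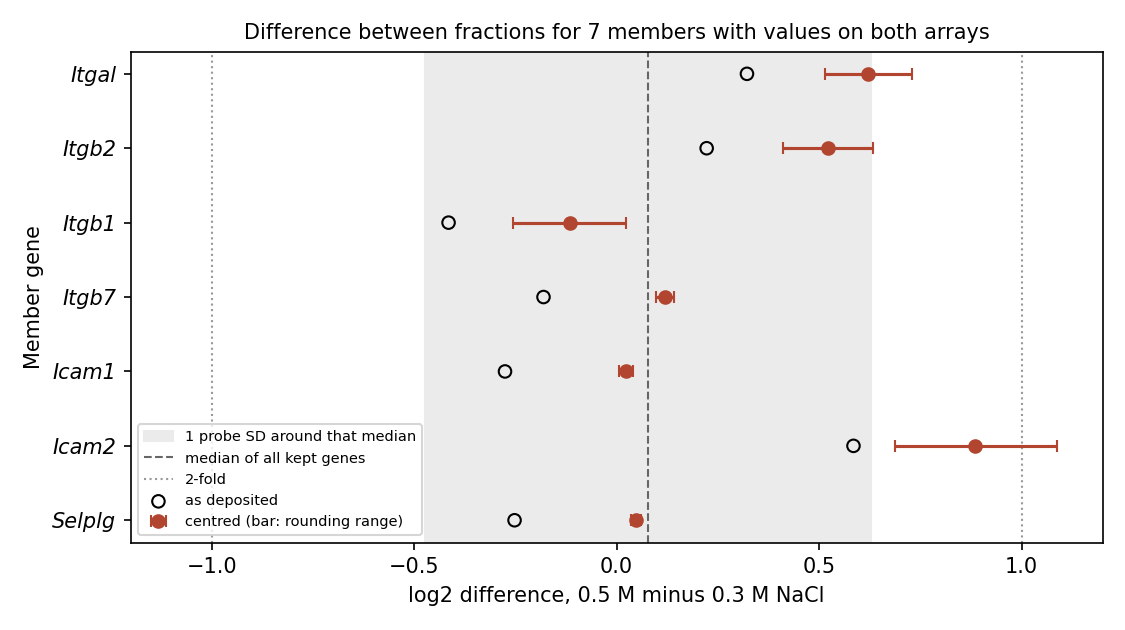
Log2 difference of each of the 7 genes valued on both arrays, 0.5 M minus 0.3 M, centred (red, with bars for the range that rounding to whole numbers allows) and as deposited (open circles). The dashed line is the median of all kept genes after centring, 0.08, with a grey band of 1 probe SD (0.55) on each side; Icam2 alone lies outside the band, and Itgb7, Icam1 and Selplg lie near the line.

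The chains of the alpha 4 and beta 1 integrins were at the dim end. Itga4, the alpha chain shared by VLA-4 and the gut-homing integrin, was empty at 0.5 M and read 6 at 0.3 M. No fold can be given for it, and an empty cell at 0.5 M was the common case for probes of that intensity, as the share of 60.8% shows. Itgb1, the beta chain with the most partners, read 9 at 0.5 M and 12 at 0.3 M. Its difference was -0.12, with a rounding range of -0.26 to 0.02, and across the scalings it ran from -0.42 with the values as deposited to 0.03 with the pseudocount. That range of rounding does not meet those of Itgal and Itgb2, although all 3 probes read 12 at 0.3 M. The gap of Itgb1 to either is still of the order of the probe SD.

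Itgb7, the beta chain that gut-homing T cells need, was clearly above the median of both arrays. It read 60 at 0.5 M and 68 at 0.3 M, which put it above 72.1% and 74.5% of the valued probes. The centred difference was 0.12, or 1.09-fold, with a rounding range of 0.10 to 0.14. It was -0.18 with the values as deposited. Both lie 0.04 above the median of all kept genes on the same scale. Itgb7 messenger RNA was thus measured in both fractions, whereas the probe of its partner Itga4 had a value at 0.3 M alone.

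Cd44 could not be assessed, since its probe was empty on both arrays. That sets no upper limit on Cd44 RNA, because the rule behind empty cells is not known. Selplg was brighter than 82.2% of valued probes at 0.5 M and 84.7% at 0.3 M. It read 110 at 0.5 M and 131 at 0.3 M. The centred difference was 0.05, or 1.03-fold, with a rounding range of 0.04 to 0.06. The uncentred one was -0.25, and it was -0.03 with loess. Its distance from the median of kept genes was -0.03 after centring.

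**Figure D3:**
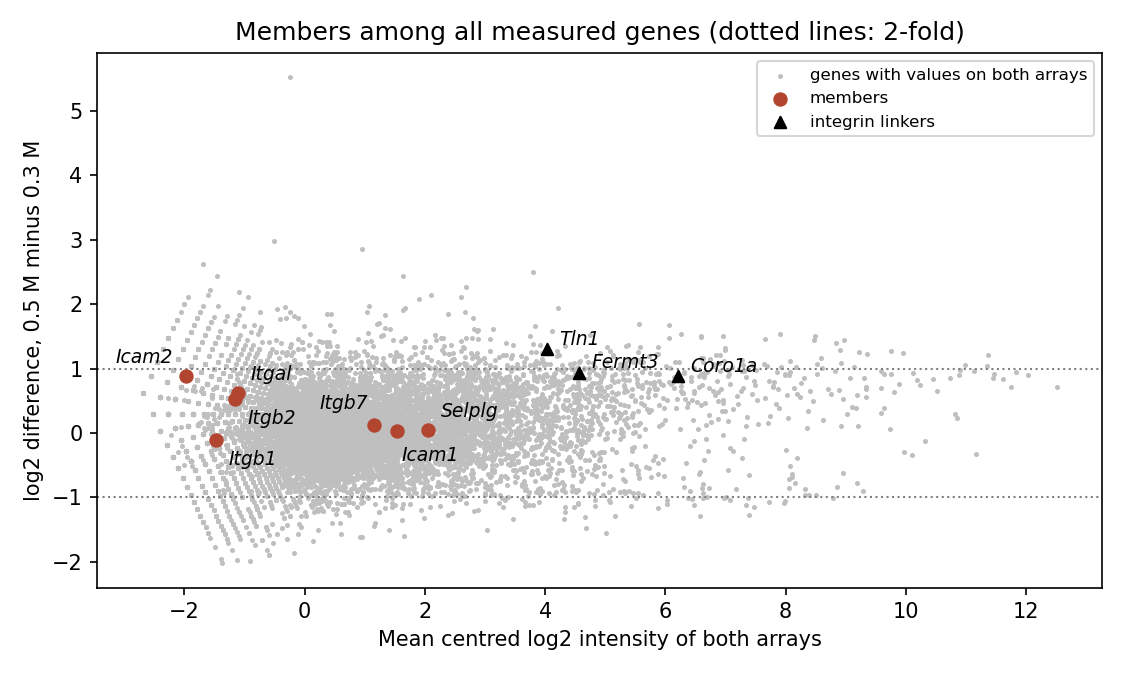
Log2 difference, 0.5 M minus 0.3 M, against the mean centred log2 intensity of both arrays for 13735 genes (grey), with the 7 valued genes in red and 3 linkers of integrins to actin as black triangles. The dim genes Icam2, Itgal, Itgb2 and Itgb1 lie in the striped region where whole-number intensities allow few values, and Itgb7, Icam1 and Selplg lie in the body of the cloud.

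Over the 3 kept genes of the set the median difference was 0.05, beside 0.08 over all kept genes. All 3 lay above 0 after centring, as did 55.8% of all kept genes, and 1 of the 3 lay above the median of all kept genes. Over the 7 valued genes the median was 0.12, beside a median of 0.05 over all measured genes. Of the 7, 6 lay above 0, but the only share to set beside this count, 55.8%, covers the brighter kept genes alone. In the values as deposited, where the median of all kept genes was -0.22, 3 of the 7 genes read higher at 0.5 M and 4 read lower. The 3 that read higher, Itgal, Itgb2 and Icam2, were all dim. A likeness between genes over 2 arrays would be no more than an equal difference, so no gene is named as following the pattern of another.

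Most other integrin chains were dim or empty, and 5 passed the filter, Itgb8 through the 0.3 M array alone. Of 16 alpha chains beside Itgal and Itga4, 10 were measured on both arrays and 2 passed the filter, with 0 past 2-fold. Itga8 read 38 at 0.5 M and 58 at 0.3 M (-0.31), and the valued probe of Itga10 read 57 and 58 (0.27, and -0.03 with the values as deposited). Itgam, a myeloid alpha chain that also pairs with Itgb2, was empty on both arrays, and Itgax, the dendritic cell alpha chain, read 11 at 0.5 M and 10 at 0.3 M. Itgae, the alpha chain of resident T cells in epithelia, read 13 at 0.5 M and 16 at 0.3 M at the probe valued on both. Of 5 other beta chains, 3 passed the filter. Itgb8 read 21 at 0.5 M and 38 at 0.3 M (-0.56, or 1.01 probe SDs below 0), Itgb4 read 50 and 66 (-0.10), and Itgb3, the platelet and osteoclast beta chain, read 56 and 70 (-0.02). The median of the kept alpha chains was -0.02 (0.24 with quantile normalization).

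Genes that regulate integrins, up or down, or tie them to actin lay on both sides of 0. Of 34 genes on this list, which also holds Itgb2l, a relative of Itgb2, 30 were measured and 20 kept. Of these, 13 lay above 0, beside 55.8% of all kept genes, 1 was at least 2-fold higher, beside 5.24%, and 0 were lower, beside 2.35%, and the median was 0.16 (-0.14 with the values as deposited). Tln1, talin, which opens integrins by binding the beta chain tail, had an intensity of 665 at 0.5 M and 331 at 0.3 M. Its difference was 1.31, or 2.47-fold, and it stayed past 2-fold under every scaling tried, from 1.01 with the values as deposited. Fermt3, the blood cell kindlin that acts beside talin, read 851 at 0.5 M and 547 at 0.3 M. Its difference was 0.94, and 0.61 with loess. Coro1a, an actin regulator of leukocytes, read 2614 at 0.5 M and 1746 at 0.3 M. Its difference was 0.88, and 0.40 with loess, which removes the trend of the difference with intensity. Rap1b, a small GTPase that signals to talin, read 97 at 0.5 M and 122 at 0.3 M (-0.03). Tln1, at 2.37 probe SDs, was the gene of this group farthest from 0, whereas the chains it binds, Itgb1, Itgb2 and Itgb7, had differences of -0.12, 0.52 and 0.12. Whether Tln1 differs from these chains beyond error could not be tested with 1 array a fraction.

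Ligands and junction receptors were spread around 0. Of 23 genes, 15 were measured and 8 kept, 4 lay above 0 and 4 below, 0 passed 2-fold and the median was 0.03 (-0.27 with the values as deposited and -0.08 with quantile normalization). Cd2, a T cell adhesion receptor, read 361 at 0.5 M and 270 at 0.3 M (0.72). Icam5, a neuronal relative of Icam1, read 66 at 0.5 M and 59 at 0.3 M (0.46), and Cd96, a receptor of T and NK cells for nectin-type ligands, read 179 and 291 (-0.40). Vcam1, the ligand of VLA-4, was dim, at 17 at 0.5 M and 24 at 0.3 M.

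Of 19 genes around PSGL-1 and selectins, 15 were measured and 8 kept, and 0 of these passed 2-fold. Below 0 were 7 of the 8, beside 44.1% of all kept genes, but 6 of the 7 lay within 1 probe SD of 0. Above 0 were 4 of the 7 dimmer measured genes, through centring alone. Of these, Glycam1, Glg1 and Fut7 read the same on both arrays, and Fut4 read 8 at 0.5 M and 9 at 0.3 M. The median was -0.27 over the kept genes. It was negative under every scaling and filter tried, from -0.57 to -0.18. PSGL-1 binds P-selectin only after its tyrosines are sulfated, by the enzymes Tpst1 and Tpst2, which differed in sign. Tpst1 read 48 at 0.5 M and 117 at 0.3 M (-0.99), and Tpst2 read 64 at 0.5 M and 54 at 0.3 M (0.54). In probe SDs these were -1.79 and 0.99, and the Tpst2 difference was 0.25 with the values as deposited. B4galt1, a galactosyltransferase, read 38 at 0.5 M and 62 at 0.3 M (-0.41). Spn, the sialomucin CD43 of T cells, read 119 at 0.5 M and 169 at 0.3 M (-0.21). Of 18 partners of Cd44 and genes of hyaluronan metabolism, 12 were measured and 3 kept, with 0 past 2-fold and a median of -0.06 (0.07 with quantile normalization). The actin linkers Ezr and Rdx, which bind the tail of CD44, read 96 and 227 at 0.5 M and 123 and 291 at 0.3 M (-0.06 each). The related linker Msn was dim, at 12 at 0.5 M and 8 at 0.3 M. The hyaluronidase Hyal1 read 30 on both arrays (0.30).

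**Figure D4:**
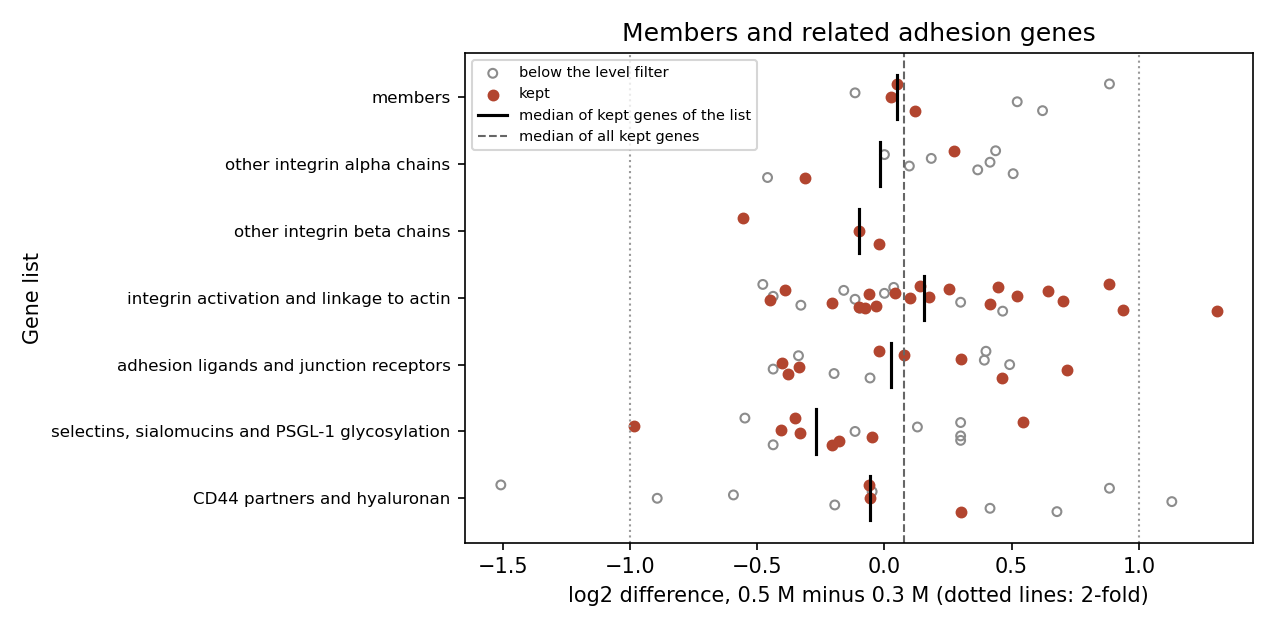
Log2 difference, 0.5 M minus 0.3 M, of the 9-gene set (top row) and of 6 related gene lists, for genes that passed the level filter (filled) and dimmer genes valued on both arrays (open), with the median of each list's kept genes as a black bar. The dashed line is the median of all kept genes, 0.08; Tln1 at 1.31 is the filled point past the 2-fold line, and the bar of the selectin and PSGL-1 list lies at -0.27.

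The label of the cells was checked with T cell markers. Of 12 markers, 9 were measured on both arrays and 8 were above the array median on both, with summed intensities of 7171 at 0.5 M and 7839 at 0.3 M. The sum follows Cd8a, whereas the median centred difference of the 8 kept T cell markers was 0.50, with 5 of 8 above 0. The 8 differences ran from -0.89 for Lat to 0.93 for Cd3g. Cd8a read 2463 at 0.5 M and 3677 at 0.3 M at its valued probe, and its other probe was empty on both arrays. Cd3d read 990 at 0.5 M and 849 at 0.3 M, whereas Cd3e was dim, at 14 and 12. Ptprc, the pan-leukocyte CD45, was empty at 0.5 M and read 13 at 0.3 M. B cells carry Itgal, Itgb2, Itgb7, Icam1, Icam2 and Selplg as well. Of 5 kept B cell markers, 4 were at least 2-fold higher at 0.5 M, beside 5.24% of all kept genes. The 4 were Cd79b, Blnk, Cd74 and H2-Aa. The largest differences were those of Cd74 (2.43) and H2-Aa (2.50), genes of MHC class II presentation that are not confined to B cells. The median difference of the 5 was 2.10, but Cd22 read 126 at 0.5 M and 225 at 0.3 M (-0.54). The 7 of 9 B cell markers valued on both summed to 1600 at 0.5 M and 612 at 0.3 M. The sum at 0.5 M follows H2-Aa, at 863 and 188. The dim Cd79a read 11 at 0.5 M and 15 at 0.3 M, Ms4a1 read 21 on both arrays, and Pax5 was empty on both. For myeloid markers 6 of 11 were valued on both, with sums of 259 at 0.5 M and 425 at 0.3 M, and Itgam, Adgre1 and Mpeg1 were empty on both. That gap is Mrc1, at 87 and 259, while the median difference of the 4 kept myeloid markers was 0.30, with 3 of 4 above 0. For platelet and red cell markers 9 of 11 were valued on both, with sums of 8141 at 0.5 M and 17481 at 0.3 M, mostly globins, a median difference of -0.53 over the 8 kept ones, and Itga2b empty on both. The kept platelet genes alone lay on both sides of 0, with Gp1bb at 0.55, Ppbp at -0.06 and Pf4 at -0.42. Endothelial and fibroblast probes, which could carry Icam1 and Icam2, summed to 383 at 0.5 M and 452 at 0.3 M over the 7 of 10 valued on both, with Tek and Pdgfra empty on both and a median difference of 0.22 over the 5 kept genes. The part of these cells in the values of the adhesion genes was not tested. More vesicles from one kind of cell and more RNA per vesicle cannot be told apart in such fractions.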

How the data were processed

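Vesicle RNA of 2 column fractions was measured on 1 array each. Per the labels' protocols, an amino allyl kit served to amplify the total RNA, which then received Cy5. The deposited table holds 1 intensity per probe and array, on a linear scale and rounded to whole numbers. The sources used here do not say how the authors scanned, corrected or normalized these intensities. The genes and lists were chosen with earlier results of these data known.

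Of 23473 probes, 20690 carried 1 gene symbol, 0 several and 2783 none. Symbols were updated through a RefSeq table by Entrez identifier for 20556 and by accession for 9. Coordinates are left out, as the array has no stated genome build. Intensities were log2-transformed and centred per array on the median over probes valued on both. Probes of a gene valued on both arrays were averaged. The level filter kept genes that reached the median gene of either array, 7446 of 13735. Number of arrays limits the precision, and no test was possible. Alternatives were no centring, quantile normalization, loess (span 0.3), a pseudocount of 16, no filter, a 75th percentile filter and the brightest probe of a gene. Named were the 9 genes, 12 fixed genes (1 of them is not reported here), and from each list the kept genes past 2-fold or, if fewer than 3, the 3 with the largest absolute difference. Scaling was tested on simulated data. Python 3.11.15, pandas 2.3.3 and statsmodels 0.14.6 were used.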

Additional observations from a re-analysis of the deposited data

How the results depend on the processing

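The count of 0 adhesion genes past 2-fold held under all 7 alternatives run, and the median of the kept ones ran from -0.25 (values as deposited) to 0.12 (no filter). Changing the filter could not alter that count, since no valued adhesion gene reached 2-fold with centring. Nor could the values as deposited, which only shift the kept adhesion genes, all close to 0, by -0.30. The stricter filter kept only 2 of the adhesion genes. With 1 probe per gene, the brightest-probe alternative could not change their values. Of 131 recomputed values, those that could not change included, 127 moved by less than 1 probe SD, or by no more than 1.5 times for a count. The other 4 were counts past 2-fold. With the values as deposited, differences and medians were bound to be among the 127, because the shift of -0.30 is smaller than 1 probe SD. In the selectin and PSGL-1 list 1 gene passed, Tpst1, with the values as deposited (-1.29), quantile normalization (-1.04) and loess (-1.03), against 0 with centring, where it was at -0.99. In the list of Cd44 partners 2 dim genes passed without a filter, Hmmr (1.13) and Sorl1 (-1.51), against 0 with it. Over all kept genes the split of higher against lower past 2-fold was 390 to 175 with centring, 122 to 579 as deposited, 253 to 288 with quantile normalization and 235 to 293 with loess. Itgb7, Icam1 and Selplg changed sign between centred and deposited values, by the shift of -0.30 that all genes share. Icam1 and Selplg were also below 0 with quantile normalization, loess and the pseudocount (-0.05 to -0.03), and the median of the kept adhesion genes was -0.04, -0.03 and -0.03 there. The stricter filter left no other integrin chain, so those lists have no median there. Whole-number intensities limit the dim probes, where 1 unit is a large share of readings from 6 to 15. No paired analysis was possible because each fraction had 1 array.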
